A study of Mus musculus with 3 samples.

Results

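The genes of the Foxp, Foxo, Foxc and Foxk subfamilies of forkhead transcription factors were examined for peaks of Foxp4 and of H3K27ac in mouse beige adipocytes. The members were Foxp1, Foxp2, Foxp4, Foxo1, Foxo3, Foxo6, Foxc1, Foxc2, Foxk1 and Foxk2, and every peak whose deposited gene name was a member was taken. This gave 28 of 16937 Foxp4 peaks and 35 of 17564 H3K27ac peaks, for 10 of 21027 protein-coding genes. Chromatin immunoprecipitation with sequencing (ChIP-seq) recovers the DNA bound by a protein or carrying a histone mark, and H3K27ac is acetylation of histone H3 at lysine 27, found at active promoters and enhancers. Each target had 1 library and no replicate, so no difference between the lists has an error over cultures, and the input DNA library was not used here. The cells of all libraries were stromal-vascular cells of inguinal white fat from C57BL/6 mice. They were grown for 3 days and on to confluence, induced for 48 h with insulin, isobutylmethylxanthine, dexamethasone, T3 and troglitazone, and then kept for 6 days with insulin, T3 and troglitazone. The labels describe precipitation with an antibody to Foxp4 for every library and name no antibody for H3K27ac. Sex, age and number of the mice, and any pooling of their cells, were not stated in the labels.

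Depth is unknown from peak lists, so a gene without a peak is only a gene at which none was called. Scores are the authors' own values per peak and were ranked only within a list. The median score was 27 for Foxp4 and 40 for H3K27ac, and 73.1% of Foxp4 peaks sat at only 6 recurrent score values. The cell type label was compared with H3K27ac promoter peaks, those with their centre within 1000 bp of a transcription start site (TSS). Such a peak was present at 8 of 10 general adipocyte markers, all but Fabp4 and Adipoq, and Adipoq had no H3K27ac peak at any distance. It was present at 2 of 8 progenitor markers (Pdgfra, Ly6a), 1 of 5 macrophage markers (Cd68) and 0 of 5 endothelial markers. Of 8 beige or brown adipocyte markers 1 (Ebf2) had one, and the share over all protein-coding genes was 26.0%. At any distance an H3K27ac peak was assigned to 9 of 10 adipocyte, 4 of 8 beige, 5 of 8 progenitor, 2 of 5 macrophage and 4 of 5 endothelial markers, beside 37.5% of genes. Of the beige or brown markers, Ucp1, Prdm16 and Dio2 had no peak in either list. Cidea had no H3K27ac peak and 1 Foxp4 peak of score 21, a recurrent value. Ppargc1a, Elovl3, Cox8b and Ebf2 had H3K27ac peaks, at the promoter only for Ebf2. Ppargc1a had 5 Foxp4 peaks, 1 of them a promoter peak of score 34 at 54 bp before its start, and 4 H3K27ac peaks.

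Forkhead proteins bind DNA through a winged-helix domain that recognises a shared TGTTTA-like core. Foxp proteins pair with one another through a leucine zipper and act mostly as repressors. Foxo1 and Foxo3 are phosphorylated by Akt after insulin and leave the nucleus, and in fat they act on adipocyte differentiation, lipolysis and the stress response. Foxc proteins act in mesenchymal and vascular development, and Foxk proteins recruit Sin3 corepressors and act on glycolysis and autophagy.

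The starts of 3 members are shown because the peaks described below are placed against them. Each sequence is the stretch of 250 bases before a TSS in RefSeq (build GRCm38.p6, to which mm10 corresponds), printed 5′ to 3′ on the strand of the gene. Capitals mark the core TGTTTA or its reverse complement TAAACA.
Foxo1, chr3:52268087-52268336, plus strand: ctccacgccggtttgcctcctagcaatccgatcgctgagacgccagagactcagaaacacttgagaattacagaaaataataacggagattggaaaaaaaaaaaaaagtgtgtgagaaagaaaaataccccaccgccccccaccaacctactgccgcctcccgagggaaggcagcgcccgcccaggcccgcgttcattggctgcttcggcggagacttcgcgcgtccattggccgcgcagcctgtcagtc
Foxp1, most 5′ of its 3 windows, chr6:99520994-99521243, minus strand: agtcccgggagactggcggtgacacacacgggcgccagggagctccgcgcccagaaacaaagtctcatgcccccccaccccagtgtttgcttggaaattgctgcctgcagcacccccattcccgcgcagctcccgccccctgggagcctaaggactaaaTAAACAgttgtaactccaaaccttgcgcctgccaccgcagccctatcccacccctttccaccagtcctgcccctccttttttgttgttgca
Foxp1, internal start, chr6:99266516-99266765, minus strand: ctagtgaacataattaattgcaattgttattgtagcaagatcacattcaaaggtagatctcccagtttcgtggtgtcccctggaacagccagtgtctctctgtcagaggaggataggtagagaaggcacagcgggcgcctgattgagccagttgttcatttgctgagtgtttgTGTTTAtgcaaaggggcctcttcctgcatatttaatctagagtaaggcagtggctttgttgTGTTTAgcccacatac
Foxp1, start nearest the 3′ end, chr6:99028299-99028548, minus strand: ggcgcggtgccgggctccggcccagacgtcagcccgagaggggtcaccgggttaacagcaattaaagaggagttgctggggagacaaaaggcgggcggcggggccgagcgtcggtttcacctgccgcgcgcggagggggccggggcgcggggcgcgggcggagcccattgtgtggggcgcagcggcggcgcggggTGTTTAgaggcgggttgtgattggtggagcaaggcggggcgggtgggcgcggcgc
Foxp4, chr17:47924633-47924882, minus strand: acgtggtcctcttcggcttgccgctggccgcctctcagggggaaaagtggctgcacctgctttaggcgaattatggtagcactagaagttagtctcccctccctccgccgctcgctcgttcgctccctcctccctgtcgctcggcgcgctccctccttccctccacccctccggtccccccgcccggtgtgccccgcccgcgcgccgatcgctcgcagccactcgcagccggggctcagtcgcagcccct

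Windows from 250 bases before to 50 bases after the start were found for 6 members (8 windows). They belong to Foxp1 (3 windows), Foxp4, Foxo1, Foxo3, Foxc1 and Foxk2, and windows of Foxp2, Foxo6, Foxc2 and Foxk1 were not used here. The full forkhead motifs TGTTTAC and TATTTAC, read on both strands, were in 0 of the 8 windows. Over all 32851 windows of that length the shares were 3.65% and 3.04%. The shorter core TGTTTA, which is contained in TGTTTAC and was added after the windows had been seen, was in 3 of 8 windows against 13.4% of all windows. All 3 were starts of Foxp1. The core began 91 bases before the most 5′ of these starts, 77 and 16 bases before the internal start and 55 bases before the start nearest the 3′ end. A match of letters is a description and not a bound site, and none of the 8 stretches of 250 bases overlapped a Foxp4 peak. The internal Foxp1 start was poorest in CpG among the 8 windows, with 5 CpG and 48.7% GC, and the richest was Foxk2 with 59 CpG and 79.3% GC. The other windows held 13 to 44 CpG and 60.3% to 75.3% GC, where the median of all windows was 7 CpG and 52.7% GC.

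Across the family, H3K27ac peaks were assigned by nearest start to nearly every member and Foxp4 peaks to 6. For Foxc1 and Foxk1 none of the assigned Foxp4 peaks lay in the gene or its promoter. A Foxp4 peak was assigned to 6 of 10 members (60.0%, exact Clopper-Pearson 95% interval 26.2% to 87.8%), beside 36.6% of all protein-coding genes. An H3K27ac peak was assigned to 9 of 10 (90.0%, 55.5% to 99.7%), beside 37.5% of genes. The shares over all genes are not matched for gene length, and the members run from 2.73 kb (Foxc2) to 597 kb (Foxp1). Among genes under 10 kb 21.8% had a Foxp4 peak, among those of 50 to 100 kb 51.3% and among those of at least 400 kb 79.7%. For H3K27ac these shares were 24.6%, 49.4% and 42.0%. These intervals cover counting error only, and since the members were chosen with earlier results known no test was made. At the promoter, H3K27ac was called at 6 of 10 members (60.0%, 26.2% to 87.8%; all genes 26.0%), namely Foxp1, Foxp4, Foxo1, Foxo3, Foxk1 and Foxk2. Foxp4 was called at 1 of 10 promoters (10.0%, 0.253% to 44.5%; all genes 6.76%), that of Foxo1. That peak was centred 512 bp from the TSS, and the count was 0 with a window of 500 bp and in the higher-scoring 50% of the list. A Foxp4 peak overlapping H3K27ac by 1 bp or more was assigned to 2 of 10 members, Foxp1 and Foxo1 (20.0%, 2.52% to 55.6%; all genes 5.35%). Foxo6 had no peak in either list, and Foxp4, Foxc2 and Foxk2 were assigned H3K27ac peaks only.

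**Figure D1:**
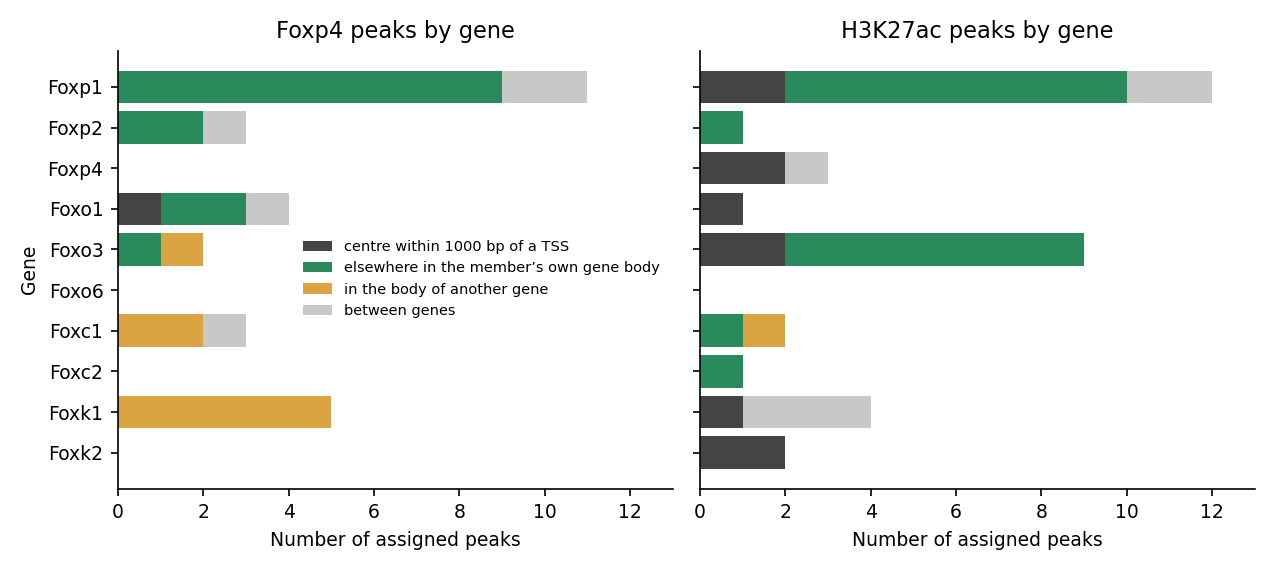
Number of assigned Foxp4 peaks (left) and H3K27ac peaks (right) per gene, with colours giving where the centre of the peak lies. Foxp1 carries the most peaks in both panels (11 and 12), all 5 Foxp4 peaks of Foxk1 lie in the body of another gene, and Foxo6 has none.

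The Foxp4 peaks of the family lay mostly in introns and often far from starts. Of 28 peaks, 21 were classed as intron, 5 as intergenic, 1 as 3′ UTR and 1 as promoter. By place, 1 was a promoter peak, 14 lay elsewhere in the member's own body, 8 in the body of a neighbouring gene and 5 between genes. The median distance to the TSS was 67500 bp, beside 27300 bp for all Foxp4 peaks. A distance over 100 kb was found for 9 of the 28 and for 21.6% of the list. The 9 included all 5 Foxk1 peaks, which lay in the body of another gene, and the others belonged to Foxp1 and Foxc1. The 35 H3K27ac peaks lay closer, with 10 promoter peaks and 18 others in the member's own body, 1 in another gene and 6 between genes. Their median distance was 27800 bp, yet that of the whole H3K27ac list was 5500 bp, so in both lists the median over member peaks was the larger. These medians lean on few genes: Foxp1 gave 11 of the 28 Foxp4 peaks, and Foxp1 and Foxo3 gave 12 and 9 of the 35 H3K27ac peaks. All H3K27ac peaks of Foxo1 (333 bp), Foxc2 (1372 bp) and Foxk2 (416 and 717 bp) lay within 5500 bp. That of Foxp2 (68613 bp) did not, and the other members with H3K27ac peaks had them on both sides of this value. Promoter peaks made up 36.5% of all H3K27ac peaks and 9.48% of all Foxp4 peaks. Shares of the other classes and places over the whole lists are not given, so those counts describe the members only.

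Few of these peaks were shared between the lists. Of the 28 Foxp4 peaks, 3 overlapped H3K27ac (10.7%, 2.27% to 28.2%), beside 8.21% of the whole list. Of the 35 H3K27ac peaks, 2 overlapped Foxp4 (5.71%, 0.7% to 19.2%), beside 7.91%. Both shares lie near those of all peaks. The 25 Foxp4 peaks without overlap had a median gap of 64900 bp to the nearest H3K27ac peak, and the value over the whole list is not given.

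Member scores ranked in the middle of each list. Ranked as a percentile with ties at their middle rank, Foxp4 scores ran from the 8.54th to the 95.3rd percentile (median 47.3) and H3K27ac scores from the 6.83rd to the 97.0th (median 39.8). Of the Foxp4 peaks 10 lay in annotated repeats, and 20 (71.4%) had a recurrent score, beside 32.0% and 73.1% of all Foxp4 peaks. Of the H3K27ac peaks 8 lay in repeats, beside 15.7% of that list.

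**Figure D2:**
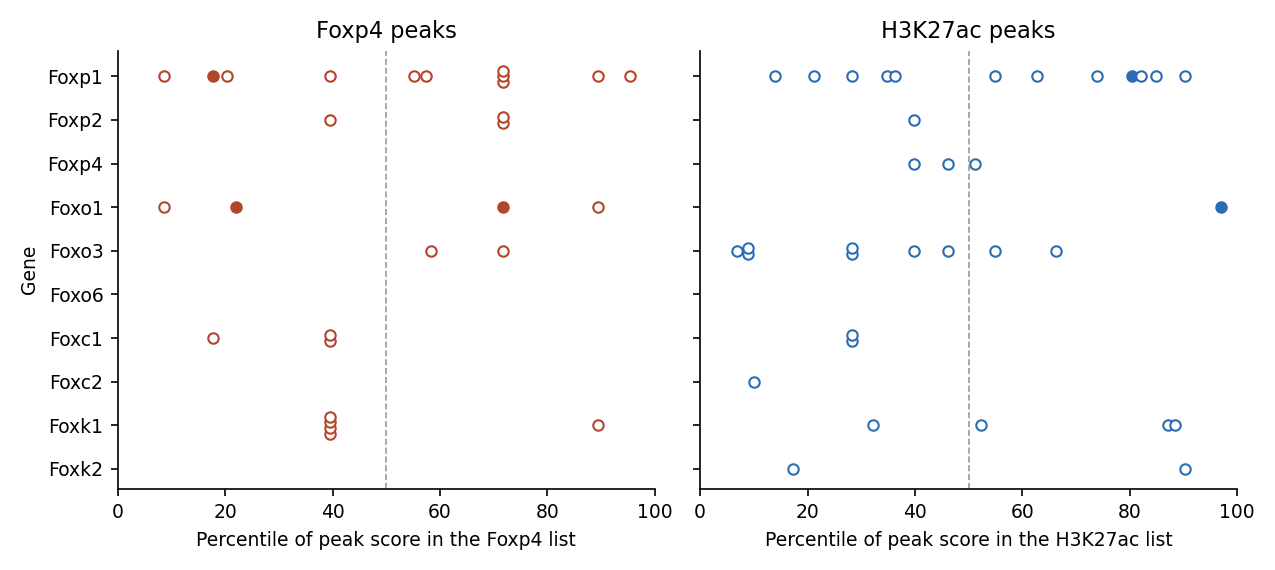
Percentile of each peak's score within the Foxp4 list (left) and the H3K27ac list (right), 1 point per peak, filled where the peak overlaps the other list, with the dashed line at the 50th percentile. The highest Foxp4 point belongs to Foxp1 (95.3) and the highest H3K27ac point to Foxo1 (97.0), and the overlapping Foxp4 peaks of Foxp1 (17.6) and Foxo1 (21.9 and 71.8) lie below these.

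Foxp1, a repressor that pairs with Foxp4 and is known for holding back the thermogenic programme of fat, had the most peaks of the family. It held 11 Foxp4 and 12 H3K27ac peaks. Of the 11, 6 had a recurrent score and 2 lay in repeats, beside 73.1% and 32.0% of all Foxp4 peaks. At least 11 Foxp4 peaks were assigned to 17 genes (0.0808% of protein-coding genes), and at least 12 H3K27ac peaks to 45 genes (0.214%), Foxp1 included in both. The gene is long, 597 kb on the minus strand of chromosome 6, and a Foxp4 peak was assigned to 79.7% of genes of at least 400 kb but to 21.8% of genes under 10 kb. Among the 350 genes of that length the mean was 2.58 Foxp4 peaks and 1.13 H3K27ac peaks. Of these 350, 5 had at least 11 Foxp4 peaks and 3 at least 12 H3K27ac peaks, Foxp1 included in both. Foxp2, a neural regulator of nearly the same length (541 kb), serves as the nearest comparison within the family. Per 100 kb of gene body Foxp1 had 1.51 Foxp4 and 1.67 H3K27ac peaks, and Foxp2 had 0.37 and 0.185. Over all gene bodies the values were 0.837 and 1.13, so Foxp1 lay above them in both lists and Foxp2 below.

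Within Foxp1, 1 place carried both peaks. The Foxp4 peak at chr6:99440319-99440717 (score 22) lay wholly inside an H3K27ac peak of 1053 bp at chr6:99439783-99440835 (score 61). It was in intron 1 of a Foxp1 transcript and 5173 bp before a further start, that of NM_053202. That start is inside the gene, but it is not the internal start printed above and has no printed window. The Foxp4 peak of highest score among all members (48) lay elsewhere, at chr6:99024256-99024616 in intron 4, 3862 bp after the start nearest the 3′ end. The closest H3K27ac peak, chr6:99026986-99027741 (score 43), was 2369 bp away and 935 bp after that same start. Peaks of both lists thus lay side by side there without overlap. A similar arrangement lay in intron 1, where a Foxp4 peak of score 29 was 650 bp from an H3K27ac peak of score 33, and a further H3K27ac peak of score 67 was 2219 bp from it.

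The remaining 8 Foxp4 peaks of Foxp1 had scores of 21 to 41, and 2 of them lay downstream of the gene, 190146 and 251807 bp after the start nearest the 3′ end. At the most 5′ of the 3 windows, an H3K27ac peak of score 47 held the whole printed 250 bases. Another of score 63, chr6:99521579-99523157, lay over a CpG island and was centred 1375 bp before the start used in the deposited annotation, so it was not counted as a promoter peak. It covers the 5′ end of the Foxp1 gene in RefSeq, base 99522746, which lies upstream of that start. The Foxp4 peak closest to either was 80154 bp away. The highest H3K27ac peak of Foxp1 (score 79, 1426 bp wide, 90.4th percentile) lay in intron 2, and its closest Foxp4 peak was 9652 bp away.

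**Figure D3:**
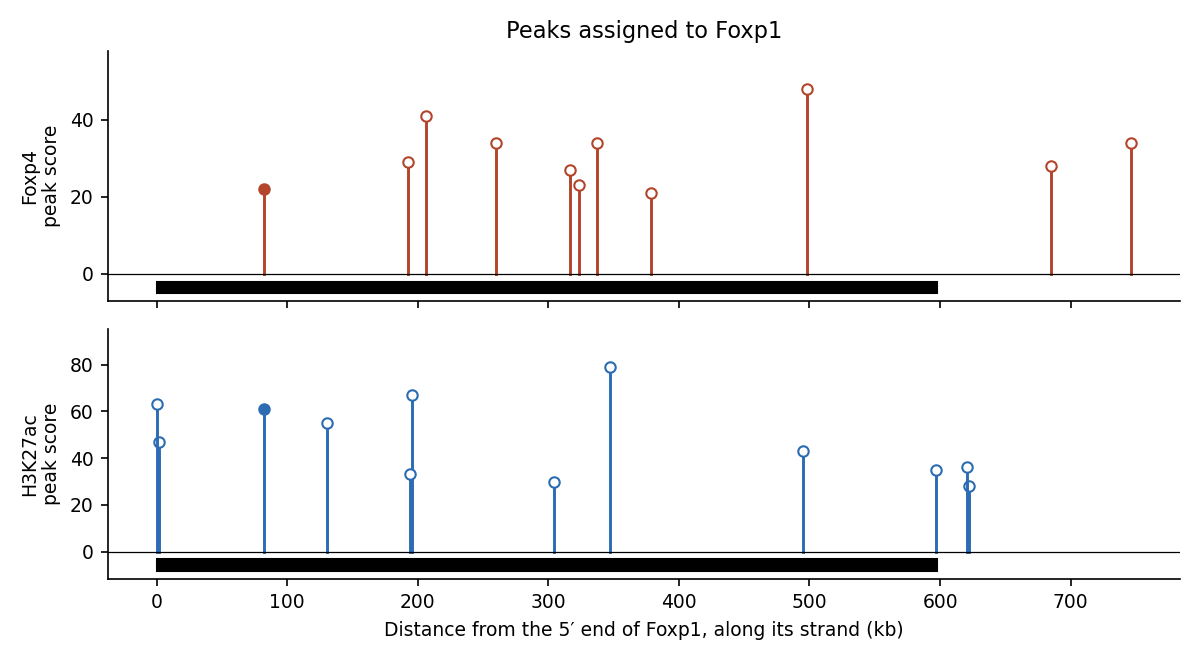
Score of each peak assigned to Foxp1 against its distance from the 5′ end of the gene in kb, Foxp4 above and H3K27ac below, filled where the peaks overlap and with the gene body as a black bar. Foxp4 peaks (scores 21 to 48) spread over 664 kb and H3K27ac peaks (28 to 79) over 623 kb, with 1 shared place.

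The genes of most similar counts to Foxp1 were Klf4 (10 Foxp4, 14 H3K27ac and 1 overlapping peak), Apbb2 (8, 13 and 1), Marcks (9, 8 and 1), Pik3r1 (7, 13 and 1) and Slc45a1 (8, 14 and 2). Likeness was the Euclidean distance over log2(count + 1) of these 3 counts, from 0.242 for Klf4 to 0.746 for Slc45a1. It compares numbers of peaks in 2 libraries and nothing else. Klf4 is only 5.34 kb long, so such counts were not confined to long genes.

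Foxp2 held 3 Foxp4 peaks with scores of 34, 34 and 27, the former pair in a DNA transposon 14887 bp upstream and in a LINE element of intron 1. All 3 scores are recurrent values. Its H3K27ac peak (score 37) lay in intron 2, and the start had none. The gene of the precipitated protein, Foxp4, had no assigned Foxp4 peak. It had H3K27ac peaks of score 39 and 37 on both sides of its start, at 182 bp after and 801 bp before, and the first held 37 bp of the printed stretch. One more H3K27ac peak (score 41) lay 49280 bp upstream. A Foxp4 peak of score 21 in intron 14 of Foxp4 is assigned by nearest start to Mdfi, together with an H3K27ac peak of score 30 in intron 6. The Foxp4 score there is a recurrent value at the 8.54th percentile.

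Foxo1, the insulin-restrained factor that acts on Pparg and lipolysis genes (81.8 kb, plus strand of chromosome 3), was the member with Foxp4 peaks at its start. Its H3K27ac peak, chr3:52267555-52269785, was 2231 bp wide and had the highest H3K27ac score of the family (109, 97.0th percentile). It reached from 782 bp before to 1448 bp after the TSS and held the whole printed stretch. A pair of Foxp4 peaks overlapped it, on either side of the TSS. The upstream peak, chr3:52267589-52268062 (474 bp, score 24), ended 275 bp before the TSS and was wholly inside the H3K27ac peak. The downstream peak, chr3:52269221-52269922 (702 bp, score 34), began 884 bp after the TSS in intron 1, over a CpG island, and had 80.5% of its length inside. Between the pair lay 1158 bp, including the TSS, with no Foxp4 peak called. The pair covered 1039 bp or 46.6% of the H3K27ac peak. The upstream peak ended 25 bp short of the printed stretch, so those letters lie beside the peak and not in it. These Foxp4 scores were modest, at the 21.9th and 71.8th percentile, and the second is a recurrent value.

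The other Foxp4 peaks of Foxo1 lay in repeats, a SINE of intron 1 (score 41, 67945 bp downstream of the TSS) and an LTR element past the gene (score 21, 97925 bp). No further H3K27ac peak was assigned to Foxo1. Foxo3, a regulator of autophagy and oxidative stress genes, showed the reverse balance with 9 H3K27ac and 2 Foxp4 peaks. At least 9 H3K27ac peaks were assigned to 116 protein-coding genes (0.552%). The gene spans 94.9 kb and held 8.43 H3K27ac peaks per 100 kb of body, beside 1.67 in Foxp1 and 1.13 over all gene bodies. Foxk1 had 6.61, and the short genes Foxc1 (3.99 kb) and Foxc2 (2.73 kb), with 1 such peak each, had 25.1 and 36.7. The remaining members lay below Foxk1. Of the 9, 2 lay at the start (scores 50 and 39, centred 513 bp after and 480 bp before it) and 7 in intron 2, spread over 57.1 kb. Scores of these 7 were 24 to 43, at the 6.83rd to 54.9th percentile of the H3K27ac list.

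A Foxp4 peak lay among the Foxo3 intron peaks without overlap. It was at chr10:42232682-42233084 (score 30), 463 bp from an H3K27ac peak of score 33. The other Foxp4 peak, of score 34, was in intron 6 of the neighbouring Afg1l, 95730 bp upstream of the Foxo3 start. Foxo6, which is mainly expressed in brain, had no peak.

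**Figure D4:**
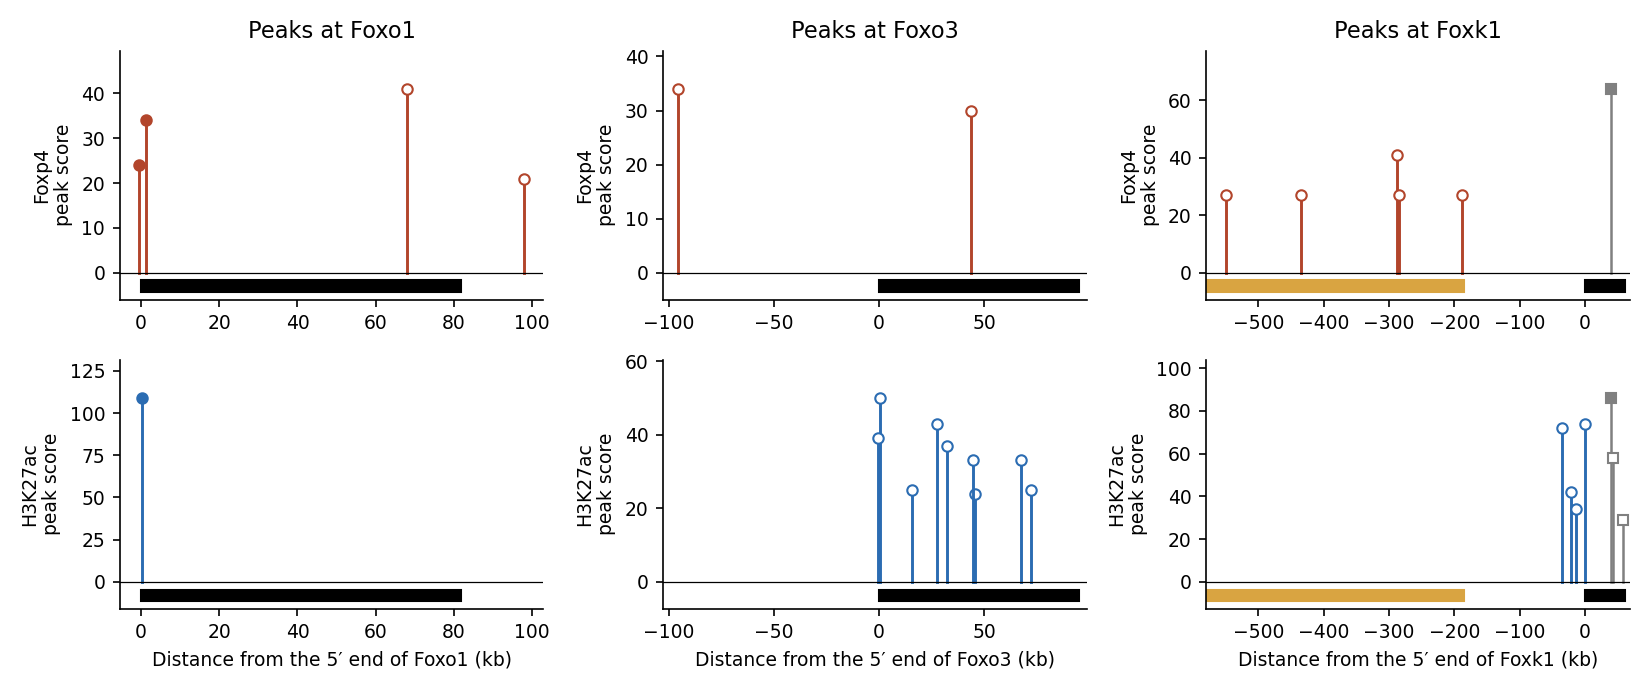
Score of each peak against its distance from the 5′ end of Foxo1, Foxo3 and Foxk1 in kb, Foxp4 above and H3K27ac below, filled where peaks of both lists overlap. Black bars are the gene bodies, the yellow bar is Sdk1, and grey squares are peaks inside Foxk1 that were assigned to Ap5z1, among them the overlapping pair with scores of 64 and 86.

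Foxc1 and Foxc2, single-exon genes of mesenchymal development, had H3K27ac peaks just past the promoter window. That of Foxc1 (score 33) was centred 1116 bp and that of Foxc2 (score 26, 10.0th percentile) 1372 bp after the start, both in the exon. Foxc2, which is known to raise mitochondrial and thermogenic genes in fat, had no other peak. Foxc1 also had 3 Foxp4 peaks of scores 27, 22 and 27. The first was in a LINE element 14242 bp upstream and the others in introns 9 and 8 of the neighbouring gene Gmds, 91473 and 119940 bp away. A second Foxc1 H3K27ac peak (score 33) lay in intron 7 of Gmds at 186055 bp, and none of the Foxp4 peaks overlapped either.

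Foxk1 and Foxk2, which regulate glycolysis and autophagy genes, differed in what was assigned to them. Foxk2 had H3K27ac peaks of score 79 and 29 at 416 bp after and 717 bp before its start, and no Foxp4 peak. Foxk1 had H3K27ac at its start (score 74, 1355 bp wide, centred 153 bp after it) and 3 more peaks 14038 to 34600 bp upstream with scores of 34, 42 and 72. The 5 Foxp4 peaks assigned to Foxk1 had scores of 27, 27, 41, 27 and 27, and all of these are recurrent values. All 5 lay within Sdk1, a neighbouring cell adhesion gene of 974.0 kb, 188997 to 550317 bp from the Foxk1 start. They were in introns 5, 13, 28 and 29 and in the last exon, so the Foxk1 count describes peaks of Sdk1 by position. The same counts of 5 Foxp4, 4 H3K27ac and 0 overlapping peaks were held by 9 other genes, of which the first by name were Ank2, Arhgap12, Gramd1b, Opcml and Pard6g.

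Inside Foxk1 itself the lists hold a shared place that the nearest-start rule gives to Ap5z1. A Foxp4 peak at chr5:142440205-142440608 in intron 2 of Foxk1 had a score of 64, at the 99.3rd percentile of the Foxp4 list and above every Foxp4 peak assigned to a member. It lay wholly inside an H3K27ac peak of 2181 bp at chr5:142439780-142441960 with a score of 86, at the 92.7th percentile. The centre of the Foxp4 peak was 38909 bp after the Foxk1 start and 23525 bp before that of Ap5z1. Further H3K27ac peaks of score 58 and 29 followed in intron 2 and in the 3′ UTR. Counted by gene body with 5000 bp upstream instead, the members held 17 Foxp4 peaks, of which 4 overlapped H3K27ac (23.5%, 6.81% to 49.9%). Of all Foxp4 peaks centred in a protein-coding gene body, without the upstream stretch, 10.2% did. These sets differ: the member bodies alone held 16 Foxp4 peaks, and the overlapping Foxo1 promoter peak enters only through the upstream stretch.

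The remaining forkhead genes of the mouse list, most of them regulators of development in other tissues, are given as a comparison without a test. Of 34, 14 (41.2%) had a Foxp4 peak, 7 (20.6%) an H3K27ac peak and 2 (5.88%, Foxj3 and Foxn2) an H3K27ac promoter peak. The shares over all protein-coding genes were 36.6%, 37.5% and 26.0%. None of the 34 had a Foxp4 promoter peak (all genes 6.76%). Overlapping peaks were assigned to Foxn3, a checkpoint-linked repressor, with a Foxp4 score of 71 in intron 3 over H3K27ac of 39, and to Foxq1 with 57 over 41 at 76730 bp upstream. Foxn3 had the most Foxp4 peaks of the group, 5, and shared the most H3K27ac peaks, 3, with Foxn2.

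Genes acting upstream of Foxo proteins and known Foxo targets held H3K27ac at most promoters. Of 26 upstream regulators, 20 (76.9%) had an H3K27ac promoter peak, 3 (11.5%) a Foxp4 promoter peak and 5 an overlapping Foxp4 peak. Among the 3 were Pik3r1, a regulatory subunit of PI3K (Foxp4 score 26), and Insr, the insulin receptor (22). Of 26 targets, 18 (69.2%) had an H3K27ac promoter peak, 5 (19.2%) a Foxp4 promoter peak and 8 an overlapping Foxp4 peak. The 5 were Trib1 (score 76), a pseudokinase, Cdkn1b (49), a cell cycle inhibitor, Prdx3 (30), a mitochondrial peroxidase, Fbxo32 (27), a ubiquitin ligase subunit, and Insr (22), which stands in both lists. Of 24 partners of Foxp and Foxk proteins, 14 (58.3%) had an H3K27ac and 2 (8.33%) a Foxp4 promoter peak. Sin3a, the corepressor that Foxk proteins recruit, had both, with a Foxp4 score of 41 and an H3K27ac score of 72. Over all protein-coding genes the shares were 26.0% for an H3K27ac promoter peak, 6.76% for a Foxp4 promoter peak and 5.35% for an overlapping Foxp4 peak, and no list was tested.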

How the data were processed

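ChIP-seq peak lists of Foxp4 and H3K27ac, 1 library each, were used as deposited, with targets taken from the sample titles. The submitters' processing notes name mm10 as the build and Bowtie2, Picard, SAMtools, MACS2 and deepTools 3.3.0 as tools. Per the file headers, each list was annotated with HOMER annotatePeaks.pl, which assigns a peak to the nearest RefSeq TSS. The authors' deposited score per peak takes whole values from 20 upward. Its meaning, the calling threshold and the use of the input were not given in the sources used here. Distances are signed, from the peak centre to the TSS, per the file headers.

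The analysis kept chromosomes 1 to 19, X and Y, and 1 Foxp4 peak fell outside them. Overlap meant at least 1 shared bp. Members were matched by deposited gene name. The background was 21027 protein-coding genes with a curated transcript in RefSeq for GRCm38.p6, matched by Entrez identifier. Gene bodies, promoter windows and lengths came from the same annotation. Recurrent scores were held by at least 100 Foxp4 peaks and exceeded 3 times the number at each adjacent value. Intervals are exact Clopper-Pearson 95% intervals. No test was made: the members and gene lists were chosen with earlier results of these data known. All members were named. Other forkhead genes were named for an overlapping Foxp4 peak or the most peaks, other list genes for promoter peaks in both lists (at most 6; 1 such gene is not reported here), and genes of like pattern for the 2 members with the most Foxp4 peaks. Foxj3, the marker genes and peaks inside members but assigned elsewhere were named after their values were seen. Alternatives changed the overlap rule, promoter window, assignment, scores, repeats and motif. A planned motif search in peaks was not run, since it requires genome sequence. The overlap and nearest-gap functions were tested on simulated peaks. Computation used Python 3.11.15 with scipy 1.17.1, pandas 2.3.3, numpy 2.4.6 and matplotlib 3.10.9.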

Additional observations from a re-analysis of the deposited data

How the results depend on the processing

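Over 16 settings, 46 of 58 alternative values stayed within their counting interval or within 1.5 times the main count, and 12 moved. This tally is a weak check, because some values could not move. Leaving out recurrent Foxp4 scores cannot change H3K27ac counts, and lists of equal length returned every main value. The intervals are also wide, 26.2% to 87.8% for 6 of 10 members. The share of Foxp4 peaks overlapping H3K27ac, 10.7%, was 4.17% without Foxo1 and 23.5% by gene body with 5000 bp upstream. Both counted as unmoved. The number of member Foxp4 peaks, 28, became 17 by gene body with 5000 bp upstream, 14 in the higher-scoring 50% of the list, 18 without repeats, 8 without recurrent scores and 17 without Foxp1. The number of member H3K27ac peaks, 35, became 15 in the higher-scoring 50% and 23 without Foxp1. The 1 member with a Foxp4 promoter peak became 0 in the higher-scoring 50% and with a window of 500 bp. The share of H3K27ac peaks overlapping Foxp4 became 0% where 50% of the peak had to be covered or its centre had to lie inside. The motif count rose from 0 to 3 windows with the shorter core. Leaving out genes, the shorter core and the overlap shares by gene body were chosen after seeing the data. No paired analysis was possible because each target had 1 library. Depth limits which peaks could be called, and the lists do not show it.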
